A study of Mus musculus with 12 samples.

Results

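H3K27Ac, the acetylation of histone H3 at lysine 27, was compared between the library of untreated cells and the library of all cells given interferon-gamma (IFN-gamma), 2 of the 12 libraries of a CUT&Tag study of the mouse pancreatic cancer line KPC1199. The comparison takes the H3K27Ac column of each cell state and every gene row of the deposited table, 25507 gene windows under 25450 names. CUT&Tag tethers a transposase to an antibody on chromatin, so that tags mark the DNA beside a histone mark. The study read 4 marks (H3K4me3, H3K27Ac, H3K27me3 and H2A119Ub, as the labels spell it) in 3 cell states with 1 library each.

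The untreated cells had no IFN-gamma and no selection for PD-L1 ("PD-L1all" in the labels). The treated cells had 10 ng/ml IFN-gamma, also with no selection. A further H3K27Ac library, of cells given the same dose and selected as PD-L1 high, is given beside them as a second library of treated cells. All are the same cultured line, labelled C57BL/6. The length of treatment is not given in the sources used here, and results of a single line may not hold for other tumour cells. With 1 library per state there is no replicate and no test. Intervals are 95% counting intervals and compare libraries, not conditions.

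H3K27Ac is placed by the acetyltransferases p300 and CBP at active promoters and enhancers and is removed by histone deacetylases. IFN-gamma binds its receptor on the cell surface, where the kinases JAK1 and JAK2 pass the signal on to transcription factors. These bind the GAS element, and interferon regulatory factors, with IRF1 among the first to be made, bind the ISRE, and both recruit coactivators to the genes of antigen presentation, cell-autonomous immunity and PD-L1. In tumour cells this response makes the cell visible to T cells and, through PD-L1, also restrains them.

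The windows at the top of the comparison belong to the guanylate-binding proteins, the immunity-related GTPases and the immunoproteasome, and of the 6 highest named windows with a promoter in the reference, 5 hold GAS letters in the 300 bases around the start. They are shown because they carry the elements to which the IFN-gamma pathway is known to bind. The sequences are from RefSeq, build GRCm38.p6 (mm10), from 250 bases before to 50 after the gene start, 5′ to 3′ on the gene's strand. Capitals mark GAS letters (TTCNNNGAA) and the ISRE core, which is GAAA, any 2 bases and GAAA again, and reads TTTC, any 2 bases and TTTC where it lies on the other strand. Gbp7 is at chr3:142530086-142530385 (plus strand), Tgtp1 at chr11:48992197-48992496 (minus), Gbp2 at chr3:142620413-142620712 (plus), Psmb8 at chr17:34197945-34198244 (plus), Gbp5 at chr3:142496684-142496983 (plus) and Irgm2 at chr11:58214727-58215026 (plus).
Gbp7: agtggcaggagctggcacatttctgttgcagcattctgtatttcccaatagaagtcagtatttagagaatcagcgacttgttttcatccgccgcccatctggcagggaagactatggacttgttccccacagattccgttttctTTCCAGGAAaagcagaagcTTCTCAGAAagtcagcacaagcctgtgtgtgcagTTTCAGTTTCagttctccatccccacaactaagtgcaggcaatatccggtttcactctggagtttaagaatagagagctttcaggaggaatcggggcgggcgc
Tgtp1: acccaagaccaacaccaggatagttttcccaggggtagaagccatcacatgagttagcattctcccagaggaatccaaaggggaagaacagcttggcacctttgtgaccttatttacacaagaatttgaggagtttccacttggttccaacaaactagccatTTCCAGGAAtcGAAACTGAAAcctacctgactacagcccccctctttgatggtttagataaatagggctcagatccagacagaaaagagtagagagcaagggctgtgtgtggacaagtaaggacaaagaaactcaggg
Gbp2: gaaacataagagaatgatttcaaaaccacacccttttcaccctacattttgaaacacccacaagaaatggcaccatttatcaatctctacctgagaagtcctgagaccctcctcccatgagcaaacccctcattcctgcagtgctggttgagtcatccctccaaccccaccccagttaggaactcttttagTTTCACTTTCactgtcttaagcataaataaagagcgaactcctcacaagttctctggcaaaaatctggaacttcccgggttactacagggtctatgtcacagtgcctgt
Psmb8: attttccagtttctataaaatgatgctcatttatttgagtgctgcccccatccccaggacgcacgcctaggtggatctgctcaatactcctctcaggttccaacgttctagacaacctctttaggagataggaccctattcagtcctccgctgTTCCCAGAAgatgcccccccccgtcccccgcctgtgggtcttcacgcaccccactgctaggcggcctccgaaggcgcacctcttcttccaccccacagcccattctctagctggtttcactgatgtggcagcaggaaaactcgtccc
Gbp5: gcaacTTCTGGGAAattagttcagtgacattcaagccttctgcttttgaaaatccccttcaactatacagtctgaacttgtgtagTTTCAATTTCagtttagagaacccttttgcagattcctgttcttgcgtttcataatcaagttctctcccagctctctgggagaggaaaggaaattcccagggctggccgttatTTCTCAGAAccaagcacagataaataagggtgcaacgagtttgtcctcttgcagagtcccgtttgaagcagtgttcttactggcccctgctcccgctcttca
Irgm2: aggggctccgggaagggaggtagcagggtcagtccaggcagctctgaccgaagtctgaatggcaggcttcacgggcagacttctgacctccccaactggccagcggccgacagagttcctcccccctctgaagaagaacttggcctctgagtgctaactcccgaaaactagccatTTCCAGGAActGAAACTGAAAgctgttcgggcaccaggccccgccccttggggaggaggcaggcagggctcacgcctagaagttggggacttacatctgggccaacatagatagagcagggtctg

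In Tgtp1 and Irgm2 the GAS letters stand directly before the ISRE core with a gap of 2 bases, and the motif letters of these genes are identical, TTCCAGGAA followed by GAAACTGAAA. The GAS letters begin 88 bases before the start in Tgtp1 (position -88) and 75 bases before it in Irgm2 (position -75). Gbp7 and Gbp5 hold 2 GAS matches and 1 ISRE core each. Gbp2 holds the ISRE core without GAS letters, and Psmb8 the reverse. A match of letters is a description and does not show that a factor bound.

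Values are normalised tags per window, a reading of the deposited signal as tags over 6000 bp that was inferred from the values. Summed over gene windows, tags came to 20.4% of the library in untreated cells, 23.9% in all treated cells and 22.99% in PD-L1 high cells. This assumes that libraries share a scale of 10000000 tags. Windows of neighbouring genes can overlap and count the same tags more than once, so these sums overstate the share. The tags of the median window numbered 47.7 in untreated cells, 46.1 in all treated cells and 42.5 in PD-L1 high cells. Windows with a mean of at least 46.3 tags over these libraries were kept, 12758 in all, and 12749 lay below. The level of a window was largely shared by untreated and treated cells (Spearman rho 0.968 across all windows, which are not replicates). Ratios are log2 of treated over untreated, each plus 5.06 tags, and are centred on the median of the kept windows, which stood at 0.24 before centring. Ratios of the PD-L1 high library are not used: it is set against the same untreated library, and its tags are given side by side. A ratio therefore says how a window stood against the median window, and a ratio on this scale understates the difference of windows with few tags.

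The label was checked against marker genes. H3K27Ac was high at the ductal keratin genes Krt8 (660 tags untreated, 799 after IFN-gamma), Krt18 (483 and 512) and Krt19 (694 and 711) and at the mucin gene Muc1 (682 and 840). The epithelial adhesion genes Epcam (25.4 and 19.2 tags) and Cdh1 (54.3 and 32.4) lay below the filter, and the mesenchymal genes Vim, Zeb1, Cdh2 and Fn1 lay above it. None of 7 leukocyte markers and none of 4 endothelial markers was kept, and the 7 leukocyte windows summed to 133 tags in untreated, 101 in treated and 89.6 in PD-L1 high cells. Of 5 fibroblast markers, 3 were kept.

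Against the median window, H3K27Ac after IFN-gamma was at least 2-fold higher in 32 of 12758 windows (0.251%) and 2-fold or more lower in 82 (0.643%). The 1.5-fold line was passed by 506 higher (3.97%) and 749 lower windows (5.87%). The central 80% of ratios lay between -0.47 and 0.42, with extremes of -1.79 and 2.21. The balance of higher and lower windows depended on the scaling, with 133 higher and 24 lower at 2-fold without centring, 86 and 57 after quantile normalization, 45 and 38 when centred within bins of H3K27Ac level, and 38 and 56 when centred within bins of untreated H3K27me3. Precision also varied with level: with the kept windows in 4 equal classes by level, the median half-width of the interval of a ratio was 0.53 in the lowest class and 0.26 in the highest. The windows just inside the 2-fold line on the higher side were Cdc7 and Cd274, and those just outside were Foxp1 and E130102H24Rik, both at 0.998. On the lower side Myom3 and Rbp2 lay just inside, and Calhm2 and Acsbg2 just outside at -0.999.

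**Figure D1:**
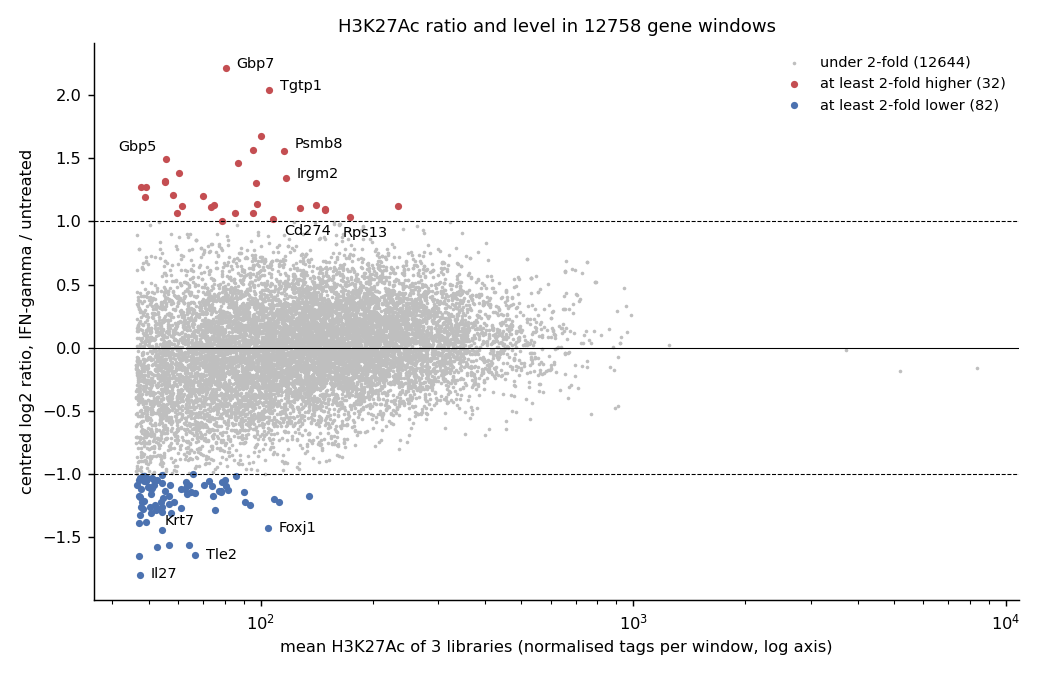
Centred log2 ratio of H3K27Ac, all IFN-gamma treated over untreated cells (vertical axis), against the mean of the H3K27Ac libraries in normalised tags per window (horizontal log axis), for the 12758 windows kept. Red points are the 32 windows at least 2-fold higher and blue points the 82 at least 2-fold lower; neither set reaches the right of the plot, where the most acetylated windows lie between the dashed lines.

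The largest gains of H3K27Ac stood at the guanylate-binding proteins, interferon-inducible GTPases that attack the vacuoles of intracellular pathogens. Gbp7 (chromosome 3, 142530336 to 142550151) had 16.2 tags in untreated cells, 111 in all treated cells and 114 in PD-L1 high cells, a ratio of 2.21 for all treated over untreated cells (interval 1.78 to 3.40). Gbp2 had 33.5, 130 and 123 tags in the same order (1.57, 1.15 to 2.31). Gbp5, which also promotes inflammasome assembly, had 17.8, 70.9 and 77.96 tags (1.497, 0.99 to 2.61). In each of these the treated libraries stood together and far above the untreated library. Of 11 members 9 passed the filter, and these 9 were past the 1.5-fold line and 5 past the 2-fold line, with a median of 1.27, where 3.97% and 0.251% of all kept windows were that high; members enter partly through the libraries in which they are high, so this count describes the kept members only. The lowest of the 9 was Gbp9, with 63.9 tags untreated and 129 after IFN-gamma (0.72, 0.32 to 1.23). Below the filter, Gbp8 had 10.2 and 30.4 tags (0.98, 0.27 to 2.54), and Gbp2b had 14.2 and 10.1 (-0.58, -2.06 to 0.55). These genes are close paralogs, so reads may be shared between copies and single values are uncertain.

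The immunity-related GTPases, which act with the guanylate-binding proteins on pathogen vacuoles, followed with the same median of 1.27 over the 7 of 9 members kept, 4 of them past the 2-fold and 5 past the 1.5-fold line (0.251% and 3.97% of all kept windows). This count too describes kept members only, since some, such as Tgtp2, pass the filter through the treated libraries. Tgtp1 had 27.4 tags untreated, 152 after IFN-gamma and 136 in PD-L1 high cells (2.04, 1.63 to 2.88). Its near copy Tgtp2 had 18.8, 62.8 and 61.3 tags (1.27, 0.73 to 2.34). Irgm2 had 47.7, 153 and 150.4 tags (1.34, 0.96 to 1.95), and Gm12250, listed with this family, 32.5, 137 and 132 (1.68, 1.27 to 2.44). Irgm1, a regulator of the family, differed from these in its starting level: its tags numbered 293 before and 394 after IFN-gamma (0.18, -0.04 to 0.41). With the filter raised to the 75th percentile of level, Irgm1 was the only member left, at 0.12.

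**Figure D2:**
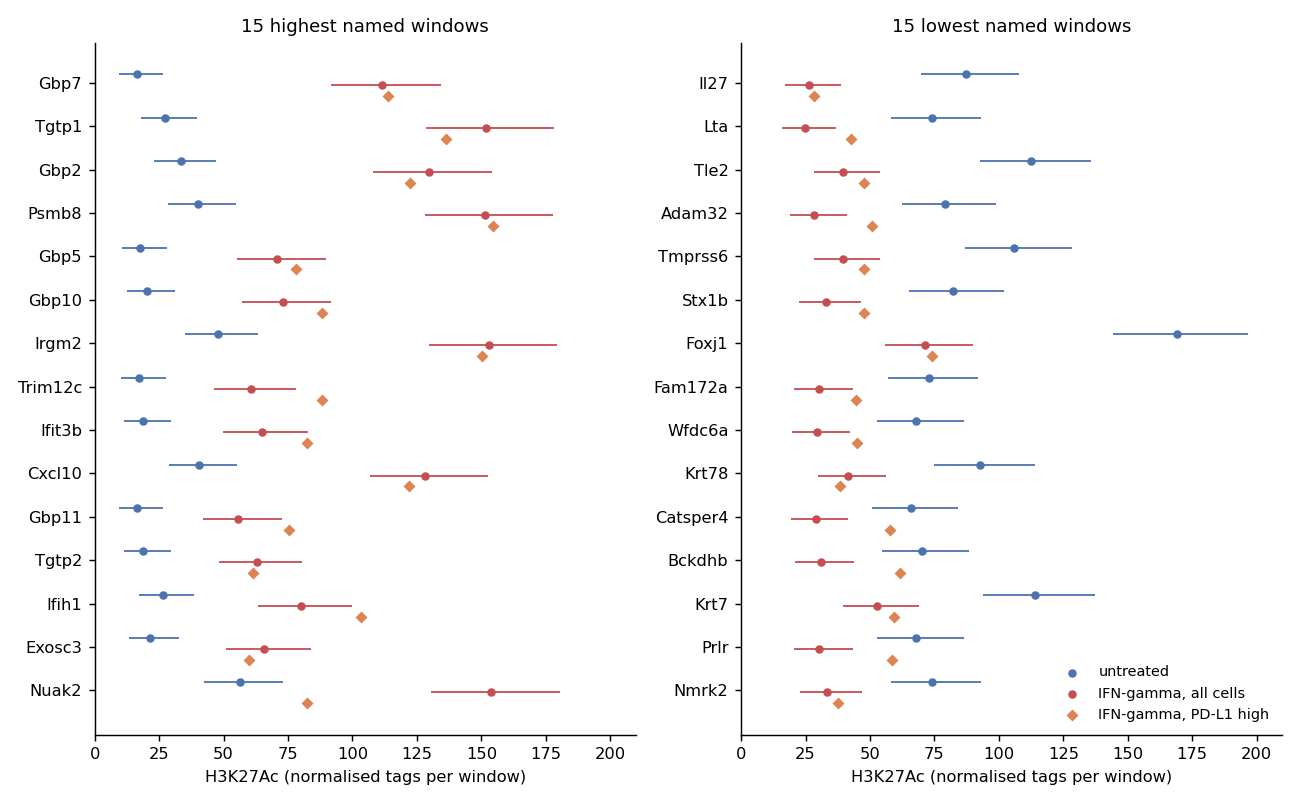
H3K27Ac in normalised tags per window (horizontal axis) in untreated cells (blue), all cells given IFN-gamma (red) and PD-L1 high cells (orange diamonds) for the 15 highest (left) and 15 lowest (right) named windows. Horizontal lines are 95% Poisson intervals of the first 2 libraries, drawn for counting error only. The blue and red lines do not touch at any of the 30 windows. This follows from the choice of windows, made by the ratio of the same 2 libraries. The PD-L1 high value of Nuak2 (82.5 tags) lies nearer to the untreated value (56.3) than to the treated value (154).

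Genes that process and load peptides for MHC class I were higher at a few steps of the pathway. Psmb8, a catalytic subunit of the immunoproteasome, had 40.1 tags untreated, 151 after IFN-gamma and 154 in PD-L1 high cells (1.56, 1.16 to 2.22). Psmb9, a second such subunit, had 79.6, 191 and 217 (0.98, 0.64 to 1.43), and Tap1, the peptide transporter gene that shares its promoter region, 81.2, 195 and 212 (0.98, 0.65 to 1.42). The windows of Psmb9 and Tap1 hold largely the same tags, so they are not separate results. The third subunit gene, Psmb10, had 124, 149.9 and 146 tags (0.02, -0.32 to 0.39), near the median window. Of 8 peptide loading genes, all kept, Tap1 and Erap1 passed the 1.5-fold line on the higher side, as did 3.97% of all kept windows. The list median was 0.35. Erap1 is the aminopeptidase that trims peptides in the endoplasmic reticulum and had 67.97 and 131 tags (0.66, 0.27 to 1.15). Pdia3 (0.43, 0.21 to 0.68), Calr (0.35, 0.10 to 0.63) and Canx (0.35, 0.09 to 0.65), chaperones of the loading complex, had smaller ratios whose intervals lay above 0.

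The MHC class I chains kept had a median of 0.23 (0.47 without centring). The 75th percentile of all kept windows was 0.22. Single chains ran from -0.20 (H2-T22) to 1.13 (H2-T24). H2-T24, a non-classical class I gene, had 62.9 tags untreated, 170.1 after IFN-gamma and 188 in PD-L1 high cells (1.13, 0.77 to 1.64). It was the only one of the 8 kept of 14 members at least 1.5-fold higher, where 3.97% of all kept windows were that high. B2m, the shared light chain, had 178, 307 and 322 tags (0.53, 0.28 to 0.83). Of the classical heavy chains, H2-D1 had 109, 165 and 157 tags (0.34, -0.00 to 0.72). H2-K1 had 73.1, 77.5 and 101 tags (-0.16, -0.64 to 0.33), and the intervals of these genes overlap. Nlrc5, the transactivator of class I genes, was below the filter with 21.8 and 20.8 tags, and Ciita, that of class II genes, with 34.5 and 26.3. Of 14 genes listed for class II, 6 were kept with a median of 0.05, namely Cd74, H2-DMa, H2-DMb1, Rfx5, Rfxap and Rfxank. The chain genes H2-Aa, H2-Ab1 and H2-Eb1 lay below the filter, so this median does not describe them. Among the kept genes Cd74, the invariant chain, had 30.4 tags untreated, 69.9 after IFN-gamma and 60.8 in PD-L1 high cells (0.84, 0.32 to 1.63).

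Cd274, the gene of PD-L1 (chromosome 19, 29362107 to 29388095), had 50.7 tags of H3K27Ac in untreated cells, 129 in all treated cells and 145 in PD-L1 high cells, a ratio of 1.02 (0.62 to 1.61), which is 0.96 when centred within bins of H3K27me3. It was the only checkpoint ligand of 8 kept that was at least 1.5-fold higher, where 3.97% of all kept windows were that high. Pdcd1lg2, the gene of PD-L2, had 5.07 and 5.06 tags and was below the filter. Cd47, the signal that restrains phagocytes, had 207 and 326 tags (0.40, 0.16 to 0.68), and Cd276 124 and 103 (-0.50, -0.90 to -0.11).

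The 13 receptor, JAK and STAT genes kept had a median ratio of 0.10. Jak2 had 126 tags untreated, 224 after IFN-gamma and 279 in PD-L1 high cells (0.57, 0.27 to 0.92), and Ifnar1, a chain of the type I receptor, 207, 348 and 303 (0.50, 0.26 to 0.77). The receptor gene Ifngr1 was level in tags, at 317, 312 and 362, and therefore below the median window (-0.26, -0.49 to -0.03). Stat5b, with 137, 106 and 95.2 tags (-0.60, -0.99 to -0.23), was the lowest. No member of the 8 interferon regulatory and Batf factors kept of 12 passed 1.5-fold. Of all kept windows, 3.97% were that much higher and 5.87% lower. Irf1 started from 230.3 tags and had 326 after IFN-gamma (0.25, 0.01 to 0.51), Irf9, a subunit of the factor ISGF3, 108 and 167 (0.36, 0.03 to 0.75), and Batf2 59.4 and 71.4 (0.01, -0.49 to 0.55). Irf8 was below the filter with 14.2 tags in both libraries. Of 9 kept feedback inhibitors none passed 1.5-fold, against the same 3.97% and 5.87% of all kept windows. Socs1, which blocks JAK kinases, had 435 and 638 tags (0.31, 0.14 to 0.50) and Socs3 387 and 417 (-0.13, -0.33 to 0.08).

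Among secreted factors, single genes stood out from lists with medians near 0. Cxcl10, a chemokine that attracts T cells, had 40.6 tags untreated, 128 after IFN-gamma and 122 in PD-L1 high cells (1.31, 0.90 to 1.97). Cxcl9, its neighbour with the same receptor, was below the filter at 19.3, 20.3 and 9.11 tags, and Cxcl11 at 16.2, 30.4 and 17.2. Cxcl1, a neutrophil chemokine, had 149, 312 and 224 tags (0.80, 0.54 to 1.12). The 9 chemokines of this class that were kept, of 13, had a median of -0.11, or 0.13 without centring. Il7, a cytokine of lymphocyte survival, had 27.4, 74.9 and 76.4 tags (1.06, 0.56 to 1.91), Ccl25 173, 330 and 306 (0.67, 0.42 to 0.96) and Il6 62.9, 121 and 110.4 (0.65, 0.25 to 1.17). The same list of CC chemokines and cytokines, 14 of 28 kept, also held the lowest ratios of the comparison, Il27 and Lta.

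Antiviral genes of the interferon response were highest at single sensors and effectors, with smaller family medians. These were 0.20 for nucleic acid sensors, 0.18 for Oas, Mx and Eif2ak2, and 0.18 for Parp, Trim, ubiquitin and Slfn genes. Without centring they were 0.44, 0.42 and 0.42. The 75th percentile of all kept windows was 0.22. Ifih1, which senses double-stranded RNA, had 26.4 tags untreated, 80.0 after IFN-gamma and 103 in PD-L1 high cells (1.20, 0.71 to 2.06). Ddx58, the related sensor RIG-I, had 37.5, 76.96 and 46.6 (0.71, 0.21 to 1.41), and Nod1, a sensor of bacterial cell wall, 39.6, 109 and 71.9 (1.11, 0.68 to 1.79). Ifit3b had 18.8, 64.8 and 82.5 tags (1.31, 0.78 to 2.38), while the median of the 10 Ifit, Isg15 and Ifitm genes kept was 0.10. Samhd1, which depletes nucleotides, had 105, 242 and 212 tags (0.93, 0.63 to 1.32), and Mx2, a GTPase against viruses, 197, 373 and 361 (0.67, 0.43 to 0.94). Trim12c had 17.3, 60.8 and 88.1 tags (1.32, 0.78 to 2.45). In the other direction Ifi203, of the Ifi200 family of DNA sensors, had 73.1, 50.6 and 93.2 tags (-0.73, -1.32 to -0.23), so the PD-L1 high library did not share the lower value.

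Ido1 and Ido2, neighbouring genes on chromosome 8 for the first enzyme of tryptophan breakdown, were both higher. Ido1 (24584133 to 24596952) had 70.0 tags untreated, 170.1 after IFN-gamma and 179 in PD-L1 high cells (0.98, 0.63 to 1.47). Ido2 had 188, 388 and 428 (0.79, 0.55 to 1.07), and Slc7a11, the cystine importer, 102, 207 and 212 (0.75, 0.43 to 1.14). Their list of nitric oxide, tryptophan and amino acid genes had a median of 0.55 over 6 kept of 10. Fas, a death receptor induced by IFN-gamma, had 38.6, 82.5 and 98.2 tags (0.77, 0.29 to 1.46). It was alone among 18 kept death genes past 1.5-fold, where 3.97% of all kept windows were that much higher and 5.87% lower. Casp4, an inflammatory caspase, had 60.9, 82.0 and 90.6 (0.16, -0.31 to 0.70).

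Not all high windows belong to known interferon targets. Exosc3, a subunit of the RNA exosome, had 21.3 tags untreated, 65.8 after IFN-gamma and 59.7 in PD-L1 high cells (1.19, 0.66 to 2.17). Nuak2, a kinase of the AMPK family, had 56.3, 154 and 82.5 tags (1.13, 0.76 to 1.68), so the PD-L1 high library stood between the others. Rps13, a ribosomal protein, had 91.8, 229 and 200.5 tags (1.04, 0.72 to 1.45). It was an outlier in its family: the 75 ribosomal protein genes kept of 81 had a median of -0.10 (0.14 without centring). Of these, 3 were at least 1.5-fold higher and 3 lower, where 3.97% of all kept windows were that much higher and 5.87% lower. Rad51c and Tex14, which start side by side, share 1 window with 75.1 tags untreated, 197 or 196 after IFN-gamma and 175 or 174 in PD-L1 high cells (1.10 and 1.09).

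**Figure D3:**
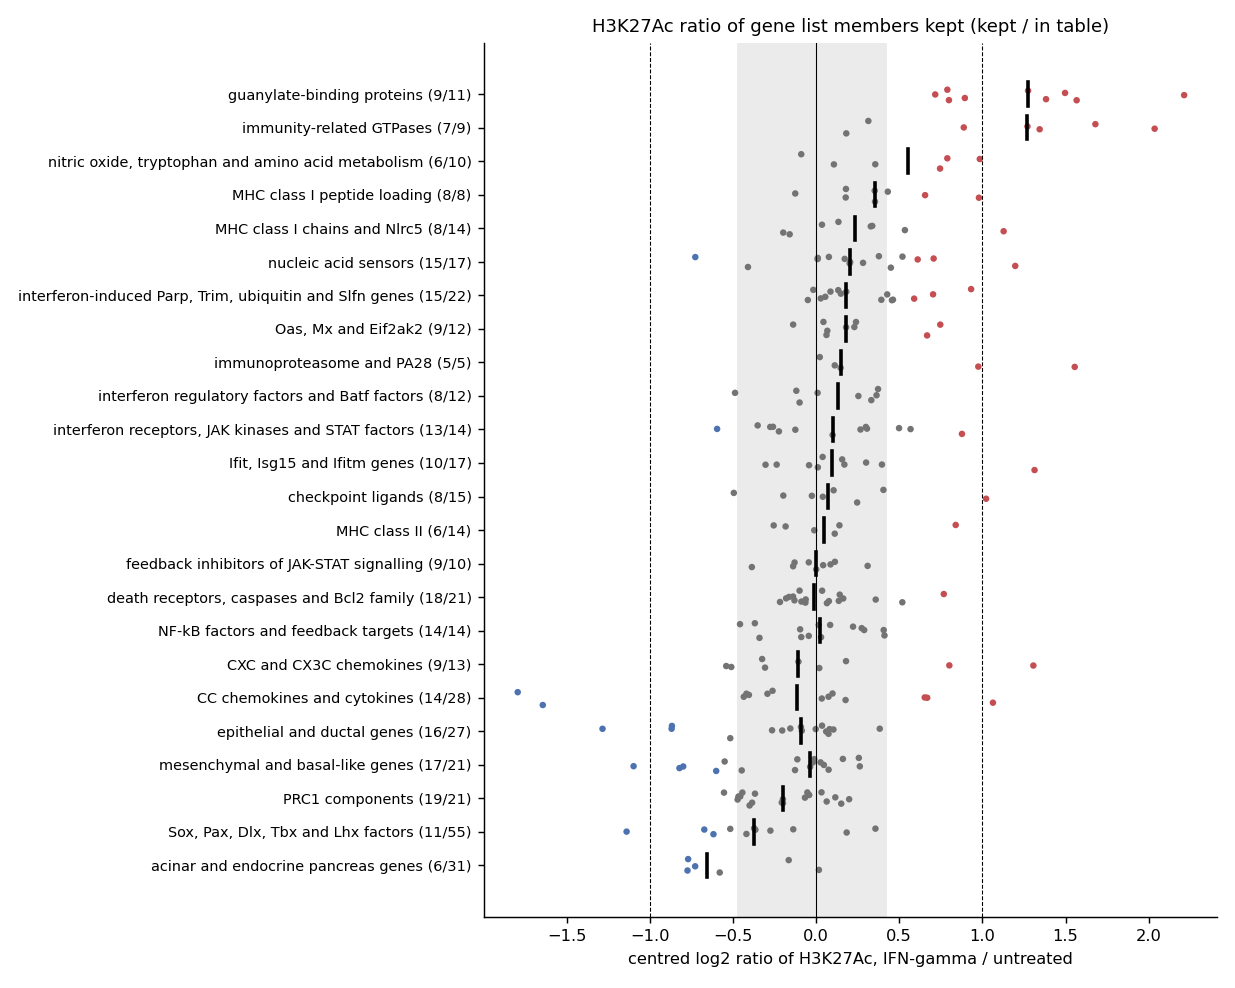
Centred log2 ratio of H3K27Ac (horizontal axis) of each kept member of 24 gene lists (points; red at least 1.5-fold higher, blue at least 1.5-fold lower), with the list median as a black bar and, in the labels, members kept over members in the table. The grey band holds the central 80% of all kept windows (-0.47 to 0.42); the medians of the guanylate-binding proteins (1.27), immunity-related GTPases (1.27) and the nitric oxide and tryptophan list (0.55) lie above it and that of the acinar and endocrine genes (-0.65) below it.

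The windows with the lowest ratios belong to genes of varied function. Il27, a cytokine of myeloid cells, had 87.3 tags in untreated cells, 26.3 in all treated cells and 28.4 in PD-L1 high cells (-1.79, -2.66 to -1.32). Lta, the gene of lymphotoxin alpha, had 74.1, 24.8 and 42.5 tags (-1.64, -2.54 to -1.14), and Tle2, a corepressor of Notch and Wnt signalling, 113, 39.5 and 47.6 (-1.64, -2.32 to -1.21). Foxj1, the master regulator of motile cilia, had the highest starting level of the lowest named windows, with 169, 71.4 and 73.9 tags (-1.42, -1.90 to -1.07). In these the PD-L1 high library lay nearer to the treated than to the untreated library. Egfr, the gene of the epidermal growth factor receptor, did otherwise: it had 68.99 tags untreated, 31.4 in all treated cells and 62.8 in PD-L1 high cells (-1.26, -2.04 to -0.74). The same held for Catsper4 (65.9, 28.9 and 57.7 tags), Bckdhb (70.0, 30.9 and 61.8) and Prlr, the prolactin receptor (67.97, 30.4 and 58.7), where the treated libraries differed from each other by more than their PD-L1 high value differed from the untreated one.

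Several keratin genes had ratios below the median window, by differing amounts. Krt7, a ductal keratin, had 114 tags untreated, 52.7 after IFN-gamma and 59.2 in PD-L1 high cells (-1.28, -1.86 to -0.87). The basal keratins Krt14 (77.6, 40.5 and 32.4 tags; -1.10, -1.77 to -0.61) and Krt17 (86.7, 56.2 and 47.6; -0.82, -1.38 to -0.36) were lower too. Krt8 (0.04, -0.11 to 0.19) stood at the median window, and Krt18 (-0.16, -0.34 to 0.03) and Krt19 (-0.20, -0.36 to -0.05) a little below it. The tight junction gene Cldn7 had 98.4, 61.8 and 42.0 tags (-0.87, -1.40 to -0.43), and Spint1, an inhibitor of membrane serine proteases, 66.96, 41.5 and 31.4 (-0.87, -1.53 to -0.34). Elf3, an epithelial transcription factor, was on the other side with 169, 263 and 241 tags (0.38, 0.11 to 0.69). Of 16 epithelial and ductal genes kept of 27, 3 were at least 1.5-fold lower and none higher, where 5.87% of all kept windows were that much lower and 3.97% higher, with a median of -0.09 (0.15 without centring and 0.01 within bins of H3K27me3). Of 17 mesenchymal and basal-like genes kept of 21, 4 were lower and none higher, with a median of -0.04 (0.20 without centring); the 4 were Krt14, Krt17, the integrin gene Itga5 (-0.80) and Snai1 (-0.60), a repressor of epithelial genes.

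Other lists stood near the median window or below it. Acinar and endocrine genes, 6 of 31 kept, had 3 members at least 1.5-fold lower, a line passed by 5.87% of all kept windows, among them Cela1, an elastase, with 153, 107 and 93.2 tags (-0.73, -1.12 to -0.38). Developmental factors of the Sox, Pax, Dlx, Tbx and Lhx families, 11 of 55 kept, had a median of -0.37 and 3 members past that line, led by Tbx10 (142, 73.4 and 56.2 tags; -1.14, -1.62 to -0.77). Sox9, the ductal lineage factor, had 284, 233 and 290 tags (-0.52, -0.78 to -0.27). Myc, with 324, 287 and 301 tags (-0.41, -0.65 to -0.18), lay below the median window, and Smad4, a tumour suppressor, above it (57.8, 109 and 100.2 tags; 0.63, 0.20 to 1.17). Of the genes that place or remove the mark, Ep300, which encodes p300, had 195, 302 and 306 tags (0.38, 0.12 to 0.66). None of 14 acetyltransferase and bromodomain genes passed 1.5-fold, where 3.97% of all kept windows were that much higher and 5.87% lower. Of 13 deacetylase genes kept, Hdac7, with 73.6, 36.5 and 42.5 tags (-1.16, -1.87 to -0.66), was the only one past 1.5-fold, against the same shares. The 14 NF-kB factors and feedback targets, 36 cell cycle genes, 14 cholesterol synthesis genes and 17 glycolysis and hypoxia genes kept had medians within 0.07 of the median window, each of which changes sign under at least 1 scaling. These lists held none at least 1.5-fold higher (3.97% of all kept windows). They held 1 lower in all (5.87% of all kept windows), Aurkb, a mitotic kinase (-0.60, -0.95 to -0.28).

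The ratio varied with the chromatin that a window had before treatment. The windows were put in 10 equal classes by each feature. Windows in the lowest class of untreated H3K4me3, a mark of active promoters, had a median H3K27Ac ratio of -0.23, and 20.7% of them were at least 1.5-fold lower; in the highest class these values were 0.04 and 0.784%. For H3K27me3, the mark of Polycomb repressive complex PRC2, the median was 0.06 in the lowest class and -0.19 in the highest, where 18% of windows were at least 1.5-fold lower. For H2A119Ub, the mark of PRC1, it was 0.06 in the lowest class and -0.16 in the highest. Promoters poor in CpG were lower than those rich in it, with a median of -0.17 in the lowest class of CpG observed over expected and 0.08 in the highest. The share of windows at least 1.5-fold higher was 7.21% in the lowest and 1.57% in the highest class of H2A119Ub. The relation to H3K27Ac itself depended on which libraries set the level. Ordered by the mean of the H3K27Ac libraries, the lowest class had a median of -0.23, with 20.4% of windows at least 1.5-fold lower. Ordered by the untreated library, which is also the denominator of the ratio, the lowest class had a median of 0.11, with 11.5% at least 1.5-fold higher and 2.35% lower. Centred within bins of H3K27Ac level, an alternative chosen after seeing the data, the lowest class of H3K4me3 stood at -0.12, the highest class of H3K27me3 at -0.13, the highest class of H2A119Ub at -0.17 and the lowest class of CpG at -0.13. The shares at least 1.5-fold lower in these classes were then smaller, at 11.8%, 11.7%, 11.1% and 10.7% in the same order. In the classes at the opposite ends they were 1.72%, 2.43%, 2.43% and 1.54%.

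**Figure D4:**
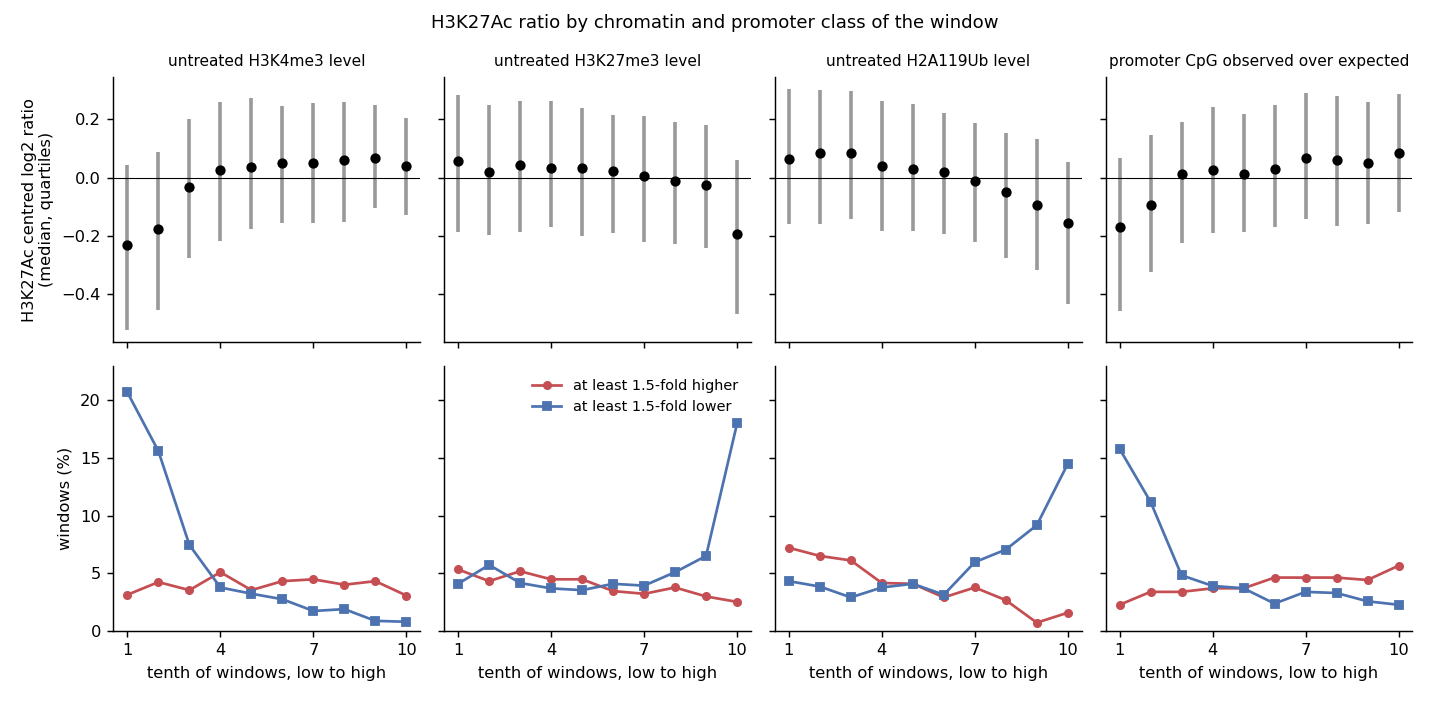
Upper panels, the centred log2 ratio of H3K27Ac (black points, medians; grey lines, quartiles) in 10 equal classes of the kept windows by untreated H3K4me3, untreated H3K27me3, untreated H2A119Ub and CpG observed over expected of the promoter. Lower panels, the percent of windows at least 1.5-fold higher (red) and lower (blue). Lower windows are most frequent where H3K4me3 is low (20.7%), H3K27me3 is high (18%), H2A119Ub is high (14.5%) and CpG is low (15.8%). Centred within bins of H3K27Ac level, which is not drawn, these shares were 11.8%, 11.7%, 11.1% and 10.7%.

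The higher and lower sets differed in these features. The 32 windows at least 2-fold higher had a median of 35 tags of H3K27Ac before treatment, 119.5 after IFN-gamma and 107 in PD-L1 high cells, and the 82 lower windows 83.4, 39.7 and 46.8. Both sets were called by the ratio of treated over untreated cells, so these H3K27Ac levels follow from the choice. The filter used the mean of the libraries, so windows with few untreated tags passed it only where treated tags were high. Median untreated H3K27me3 was 8.64 tags in the higher set, 57.9 in the lower set and 13.2 over all kept windows. Among windows with a reference promoter, the median CpG observed over expected was 0.523 in the higher set (25 promoters), 0.311 in the lower set (56) and 0.772 over all kept windows (9749). Some higher windows had more H3K27me3 before treatment than the median kept window, among them Psmb8 (121 tags), Gbp5 (116), Ifit3b (123), Gbp7 (64.0) and Cxcl10 (52.8).

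Nearby kept windows moved together at a few loci. Genes starting within 6000 bp of each other were merged, since they share tags, into 10416 positions, and runs of at least 3 consecutive kept positions past 1.5-fold were sought. There were 4 runs of higher windows, all of interferon-inducible GTPases with their neighbours. On chromosome 3, Pdlim5, Gbp5, Gbp7, Gbp3 and Gbp2 spanned 225 kb and held 307 tags in untreated cells, 776 after IFN-gamma and 745 in PD-L1 high cells. Gbp2b lies within this stretch but was below the filter, and was not higher, with 14.2, 10.1 and 2.02 tags. On chromosome 5, Gbp9, Gbp4, Gbp10, Gbp6 and Gbp11 spanned 247 kb and held 212, 495 and 488 tags. On chromosome 11, Gm12185, Tgtp1 and Tgtp2 held 73.6, 315 and 331 tags, and Gm12250, Igtp and Irgm2 135, 415 and 417.

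There were also 4 runs of lower windows, 3 of them on chromosome 15. Positions below the filter are passed over, so the windows of a run need not be adjacent genes. The longest run held 6 kept keratin genes of the type II cluster, Krt7, Krt81, Krt83, Krt4, Krt79 and Krt78, over 542 kb (101412403 to 101954287). It had 794 tags in untreated cells, 484 after IFN-gamma and 402 in PD-L1 high cells, with ratios from -1.31 to -0.64. The others were Tmprss6, Il2rb and C1qtnf6 (367, 209 and 209.6 tags), Mapk15, Fam83h and Iqank1 (401, 238 and 230 tags) and, on chromosome 17, Cdsn, Gm9573 and Mucl3 (340, 227 and 230). Chromosome 15 also held 13 of the 82 windows at least 2-fold lower and had 10.1% of its 577 kept windows at least 1.5-fold lower, against 5.87% overall. Chromosome 11 had 9.26% lower, and the X chromosome 0.476% lower and 8.10% higher over 210 windows.

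The motif letters shown for the leading promoters were counted in all promoters, on both strands. The ISRE core was present in 12 of 25 promoters of the windows at least 2-fold higher (48.0%), in 1 of 56 of those lower (1.79%) and in 281 of 9749 kept (2.88%). GAS letters were present in 9 of 25 (36.0%), 5 of 56 (8.93%) and 674 of 9749 (6.91%). Either was present in 14 of 25 (56.0%), 6 of 56 (10.7%) and 914 of 9749 (9.38%). At the 1.5-fold line the shares were close to those of all kept windows for GAS (9.67% of 393 higher promoters) and higher for the ISRE core (8.14%). TGANTCA, the AP-1 element, was in 3 of 25 higher promoters (12.0%) and 5.17% of all kept, the kappa-B element of NF-kB in 1 of 25 (4%) and 1.65%, and the GC box GGGCGG in 12 of 25 (48.0%) and 64.8%. The GAS and ISRE letters do not overlap in the promoters printed above.

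The other active mark, H3K4me3, was read in separate libraries and made into ratios in the same way. Of 12754 windows kept for H3K4me3, 106 (0.831%) passed the 1.5-fold and 46 (0.361%) the 2-fold line on the higher side, and 729 (5.72%) and 131 (1.03%) on the lower side. Of the 28 windows that were at least 2-fold higher in H3K27Ac and also kept for H3K4me3, 12 were at least 1.5-fold higher in H3K4me3 and none lower. Of 36 lower ones kept, 17 were at least 1.5-fold lower in H3K4me3 and none higher. At the 1.5-fold line in both marks, 31 of 483 higher windows (6.42%) and 138 of 514 lower windows (26.8%) went the same way. The correlation of the ratios across 11718 windows was 0.36 (Spearman) and 0.39 (Pearson), a description of windows that share their libraries.

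Selected windows fell into groups by the pair of marks. At Tgtp1, H3K4me3 had 18.9 tags untreated and 399 after IFN-gamma (4.03), at Gbp5 47.8 and 292 (2.33), at Psmb8 218 and 882 (1.77) and at Cd274 229 and 650 (1.26), so both marks were higher. Other windows were higher in H3K27Ac with level or lower H3K4me3. H2-T24 had 65.7 and 70.0 tags of H3K4me3 (-0.14), Il7 160.3 and 202 (0.09), Slc7a11 182 and 208 (-0.05) and Mx2 94.1 and 70.5 (-0.64). Ido1, with 25.9 and 17.9 tags, Ido2, with 23.9 and 15.4, and Cxcl10, with 63.7 and 49.7, were below the H3K4me3 filter in spite of their H3K27Ac. Conversely Batf2 had 48.8 and 311 tags of H3K4me3 (2.39) and Irf1 611 and 1537 (1.10), where their H3K27Ac ratios were 0.01 and 0.25. Tgm2, a transglutaminase, and Oas3, an antiviral enzyme, showed the same order, with H3K4me3 ratios of 1.23 and 1.42 and H3K27Ac ratios of 0.09 and 0.18. Of the 46 windows at least 2-fold higher in H3K4me3, 6 lay below the H3K27Ac filter, among them Rtp4, with 15.7 and 35.4 tags of H3K27Ac, and Iigp1, with 21.3 and 37.5.

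**Figure D5:**
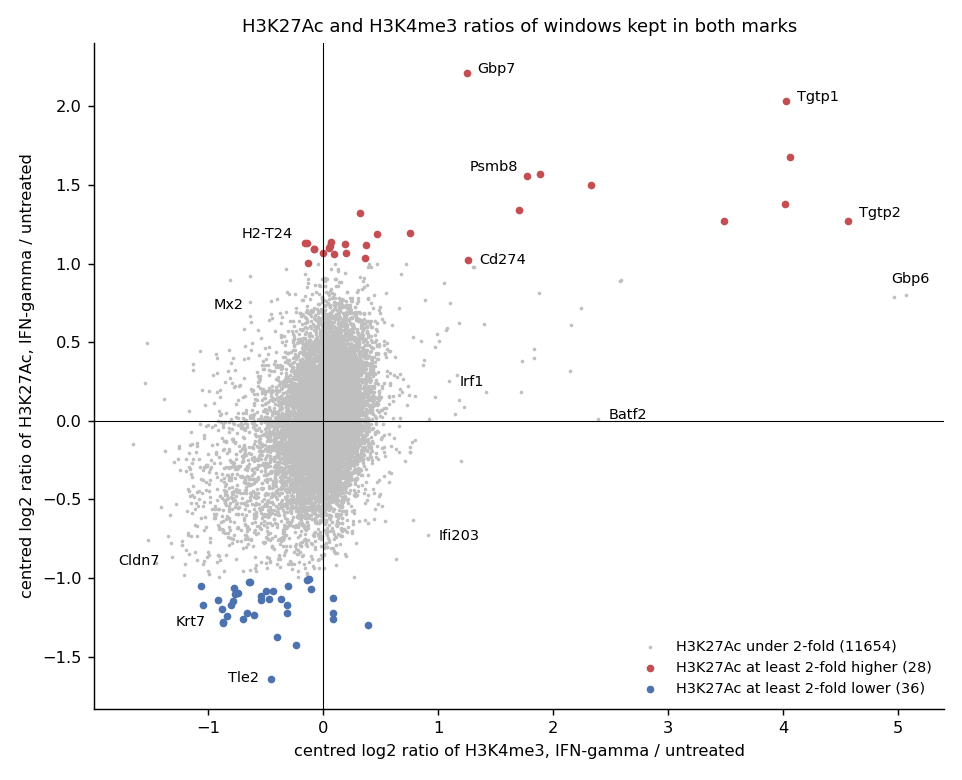
Centred log2 ratio of H3K27Ac (vertical axis) against that of H3K4me3 (horizontal axis), all IFN-gamma treated over untreated cells, for 11718 windows kept in both marks; red points are the 28 windows at least 2-fold higher and blue points the 36 at least 2-fold lower in H3K27Ac. The GTPases and Psmb8 lie at the upper right, H2-T24 near 0 for H3K4me3, and Batf2 (2.39 in H3K4me3, 0.01 in H3K27Ac) on the horizontal axis.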

How the data were processed

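The authors deposited a signal per gene and library. Per the submitters' processing notes, the tools were Bowtie2 2.4.2, HOMER and MACS2 2.2.7.1 and the build mm10, without their roles. Nothing in the sources used here states how windows were placed, duplicates removed or libraries scaled. Times 6000, the deposited signal of each library fell on steps of 0.5 tags (100% within 10% of a step), and 1 tag was worth 1.01 in each H3K27Ac library. Symbols or synonyms matched RefSeq GRCm38.p6 for 25203 windows (98.8%), and 18776 had a promoter sequence.

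The pseudocount is the 10th percentile of values above 0 (5.06 tags). Intervals at 95% are exact Poisson for levels and Clopper-Pearson on recovered tags for ratios, centred alike, with no pseudocount, and cover only counting error, since tags without molecular identifiers are not independent molecules. The calculation of ratios and intervals was checked on simulated Poisson counts. The intervals assume such counts, so this check says nothing about spread between libraries. The members and lists were chosen with earlier results of these data known. Named genes are the 15 highest and 15 lowest windows, skipping predicted genes, RIKEN clones and small RNAs, a set of pathway genes, and in each list the members past 2-fold and the 3 with the largest ratios; others were chosen after their values were seen, and some genes of the set are not reported here. Of several windows for a gene, that of highest mean was printed. Python 3.11.15, pandas 2.3.3, numpy 2.4.6 and scipy 1.17.1 were used.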

Additional observations from a re-analysis of the deposited data

How the results depend on the processing

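The counts of windows past a fold depended on the settings, and the cause was not tested. With a pseudocount of 20 tags, 10 windows passed the 2-fold line on the higher and 32 on the lower side, all among the main calls, and 312 and 482 passed 1.5-fold. With no level filter the counts were 260 and 1136 at 2-fold and 2084 and 3638 at 1.5-fold, and with the filter at the 75th percentile 4 and 1, and 151 and 159. Without centring they were 133 and 24, and 1878 and 218, and quantile normalization gave 86 higher at 2-fold. Centring within bins of H3K27Ac level left 38 windows at least 2-fold lower, all among the main 82. A pseudocount of 1 tag, the filter on the compared libraries and centring within bins of H3K27me3 kept every count within 1.5 times. The shift of the median window was 0.07 to 0.30 over its alternatives. No list median or named gene that was past 1.5-fold changed sign, while several list medians near 0 did. Of 392 list medians recomputed, 391 moved by less than the counting interval, and of 1370 gene ratios 1364. No paired analysis was possible because each state has 1 library. Differences between cultures cannot be told apart from the effect of IFN-gamma, and depth limits windows of few tags most.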
